A study of Mus musculus with 6 samples.

Results

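Fibro-adipogenic progenitors (FAPs) are the resident fibroblasts of skeletal muscle, and 10 genes that mark them were followed here in the soleus of mice with 1 disrupted *Mustn1* allele. Of the 10 genes, 5 mark the fibroblasts of the adventitia, the connective tissue around larger vessels and muscle bundles (*Pi16*, *Dpp4*, *Sema3c*, *Cd55* and *Clec3b*), and 5 are general FAP genes (*Pdgfra*, *Ly6a*, *Cd34*, *Dpt* and *Serpinf1*). They were taken by gene symbol from the 16247 genes of the deposited normalized table and joined to the raw counts by Ensembl identifier. All 10 were found, and all 10 were among the 14696 genes with enough reads to be tested.

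FAPs lie between the muscle fibers, are recognized by the PDGF receptor *Pdgfra* and the surface antigen *Ly6a* (Sca-1), and can become matrix-producing fibroblasts or adipocytes. They build the connective tissue of muscle and support satellite cells during repair. Adventitial cells marked by *Pi16* and *Dpp4* are regarded as a progenitor-like state, and the cells between the fibers, here called parenchymal, as a more differentiated one. None of the 10 genes is private to FAPs: *Cd34* and *Ly6a* are also made by endothelial cells, *Dpp4* by lymphocytes, and *Cd55* by many cell types.

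The mice were C57BL6/N and 8 weeks old. Of the 6 mice, 3 were heterozygous for a *Mustn1* KO-first (tm1a) allele (HET) and 3 were wild-type littermates (WT), and each gave 1 library of poly-A RNA from whole soleus, a slow-twitch calf muscle. The KO-first allele traps the transcript after exon 1 in a lacZ and neomycin cassette in every cell of the body, 1 intact copy of the gene remains in HET mice, and the study's own description of the line states that the trap leaks under some conditions. No mouse of either group received a treatment, and no homozygous mouse was analysed here.

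*Mustn1* itself was 12.6, 16.8 and 13.1 CPM (the usual normalized count, reads of a gene relative to the TMM-scaled size of its library) in HET mice 1 to 3 and 23.1, 29.0 and 30.5 CPM in WT mice 1 to 3, a log2 fold change of −0.96 ± 0.15 (SE, n = 3 per genotype, edgeR adjusted p = 0.0452), in the direction of the labels. All mice are labelled male. In each of them, however, *Xist*, which is transcribed from an inactive X chromosome, had 3858 to 9154 reads, and the Y-linked genes *Ddx3y*, *Kdm5d*, *Uty* and *Eif2s3y* together had 0 to 12 reads, so that the label and the data disagree in both groups. The libraries held between 26790075 and 50368796 reads on genes. WT mouse 3, the most deeply sequenced, stood apart on the second principal component (−19.8, against 1.59 to 6.62 in the other 5 mice). On the first component, with 44.8% of the variance, it lay at −0.63, between the genotypes. There WT mice 1 and 2 were at −21.3 and −14.5, and HET mice 1 to 3 at 5.90, 14.8 and 15.7.

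The 10 genes are protein-coding and spread over 7 chromosomes, with positions given in GRCm38 as in the count table. *Cd55* (chr1:130439027-130462744, minus strand), *Dpt* (chr1:164796644-164824266, plus strand) and *Cd34* (chr1:194938819-194961279, plus strand) are on chromosome 1, far from each other. *Sema3c* (chr5:17574281-17730268) and *Pdgfra* (chr5:75152292-75198215) are on the plus strand of chromosome 5. *Dpp4* is at chr2:62330073-62412231 on the minus strand, *Clec3b* at chr9:123150946-123157432 on the plus strand, *Serpinf1* at chr11:75409769-75422701 on the minus strand, *Ly6a* at chr15:74994877-74998031 on the minus strand and *Pi16* at chr17:29318877-29329413 on the plus strand. Where transcripts resemble those of another gene, reads can be lost or misassigned: of the 50-base stretches of the *Ly6a* transcripts, 19.0% also occur in other genes, mostly *Ly6c1*, and of those of *Cd55* 9.12%, mostly in its duplicate *Cd55b*, which had at most 1 read in any library. In the remaining 8 genes this share lay between 0% and 4.93%.

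The sequences just upstream of the genes were read from RefSeq windows of GRCm38.p6 that run from 250 bases before to 50 bases after a gene's start. They covered 8 of the 10 genes, all but *Clec3b* and *Ly6a*. Of the 5 genes whose HET mice all lay above the WT mice, *Dpp4* and *Dpt* had a window with most of its upstream stretch outside annotated exons, and they are shown with *Cd55*, whose genotypes overlapped. Capitals mark a TATA box (TATAAA) or a TEAD site (GGAATG, here on the opposite strand) in *Dpp4* and GC boxes (GGGCGG, on the opposite strand) in *Cd55*. The coordinates are chr2:62412232-62412481 (minus strand) for *Dpp4*, chr1:164796413-164796643 (plus strand) for *Dpt* and chr1:130462745-130462994 (minus strand) for *Cd55*.
Dpp4: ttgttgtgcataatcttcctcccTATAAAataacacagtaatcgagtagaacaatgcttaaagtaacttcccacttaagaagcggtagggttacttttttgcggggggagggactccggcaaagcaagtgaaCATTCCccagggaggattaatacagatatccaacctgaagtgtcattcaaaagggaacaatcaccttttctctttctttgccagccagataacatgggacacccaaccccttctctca
Dpt: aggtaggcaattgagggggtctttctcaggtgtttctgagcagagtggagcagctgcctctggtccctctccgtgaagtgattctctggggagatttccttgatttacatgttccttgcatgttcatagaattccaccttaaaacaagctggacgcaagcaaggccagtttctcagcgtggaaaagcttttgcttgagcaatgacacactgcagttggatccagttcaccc
Cd55: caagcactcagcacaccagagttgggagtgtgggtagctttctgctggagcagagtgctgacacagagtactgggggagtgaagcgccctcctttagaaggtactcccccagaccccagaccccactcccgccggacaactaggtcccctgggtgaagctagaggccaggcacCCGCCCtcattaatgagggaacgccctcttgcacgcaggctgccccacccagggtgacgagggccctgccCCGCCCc

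The letters differed between the upstream stretches in base composition and in motifs, both strands being searched in all 32851 windows. The GC content of the windows ran from 45.3% in *Dpp4* and 48.7% in *Dpt* through 50.0% in *Cd34*, 50.7% in *Serpinf1*, 51.0% in *Pdgfra* and 53.3% in *Pi16* to 63.3% in *Cd55* and 75.7% in *Sema3c*, with a median of 52.7% over all windows. The 2 genes with the highest GC content, *Cd55* and *Sema3c*, were those with a GC box (35.7% of all windows hold one). A TATA box lay in the windows of *Dpp4* and *Dpt* (13.6% of all windows), in *Dpt* past the stretch shown. A CCAAT box lay in those of *Pi16* and *Serpinf1* (CCAAT, 37.4%), and a TEAD site in that of *Dpp4* alone (14.7%). The AP-1 site TGANTCA was in none of the 8 windows (7.81% of all), and the serum response factor site (CArG box), searched in a loose form that allows any base at its center, was in 8 of 8 (73.3% of all). These are letter matches in short windows.

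Measured per length (RPKM, CPM per kilobase of exons), 3 of the general genes held the top of the order in WT mice. *Ly6a* was highest at 37.6 ± 5.06 RPKM (SD, n = 3 mice), well above *Dpt* at 16.3 ± 1.35 and *Serpinf1* at 15.96 ± 3.65, which did not differ beyond their spread. *Clec3b* (12.6 ± 2.61 RPKM), *Cd34* (11.1 ± 1.64) and *Sema3c* (9.32 ± 0.296) followed, *Clec3b* and *Cd34* within their spread and *Cd34* above *Sema3c* in every WT mouse, and then *Pi16* (5.43 ± 1.25), *Cd55* (3.59 ± 0.465) and *Pdgfra* (1.62 ± 0.473). *Dpp4*, a cell-surface dipeptidyl peptidase, was lowest at 0.294 ± 0.125 RPKM, from 32, 52 and 131 reads in WT mice 1 to 3, so its values carry the most counting error. In HET mice *Ly6a* (42.6 ± 5.23 RPKM) stayed first and *Dpp4* (0.737 ± 0.271) last, while *Serpinf1* (33.5 ± 7.35) lay above *Dpt* (23.9 ± 2.78) and *Pi16* (11.3 ± 1.16) above *Sema3c* (10.1 ± 1.89), the latter within their spread.

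Mean levels of all 10 genes were higher in HET than in WT soleus. One group of genes separated the genotypes, another hardly differed, and *Pdgfra* and *Cd34* were in neither. *Pi16*, *Dpp4*, *Clec3b*, *Dpt* and *Serpinf1* were higher in each HET mouse than in any WT mouse, by 1.47 to 2.47 times. *Sema3c*, *Cd55* and *Ly6a* were 1.08 to 1.14 times higher on average with overlapping genotypes. *Cd34*, also with overlap, lay between at 1.35 times. *Pdgfra* was 1.52 times higher, more than *Dpt* at 1.47 times, but its genotypes overlapped. After adjustment over all genes tested, only *Pi16* passed the threshold of 0.05 (edgeR), 1 of 10 against 0.143% of all genes called higher, and 0 of 10 were called lower against 0.00680%. All log2 fold changes of the 10 genes were above 0, as were those of 45.6% of all genes, and 6 were above 0.5, as were 7.38% of all genes. The 5 genes with every HET mouse above every WT mouse stand against 7.55% of all genes, the 0 with every HET mouse below against 6.02%, and the 7 with an unadjusted p under 0.05 and a higher level in HET against 5.76%. Since RNA came from whole muscle, more cells of a type and more RNA per cell cannot be told apart in any of these values.

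**Figure D1:**
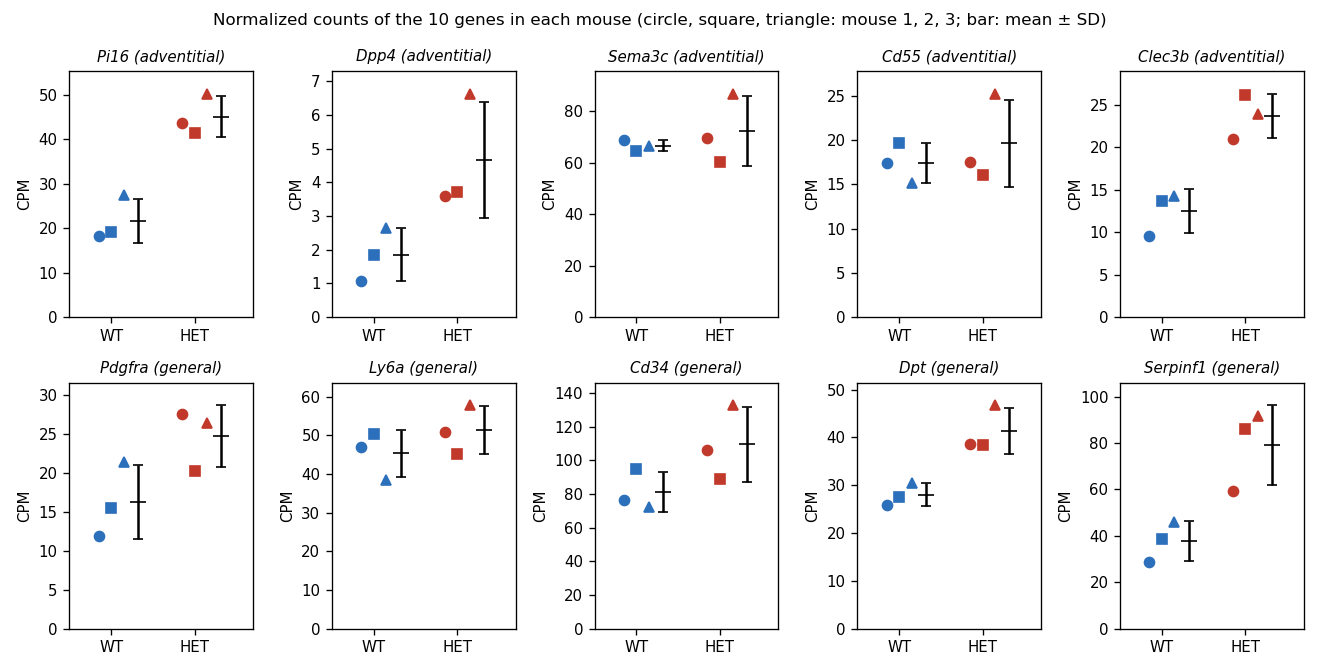
Normalized counts (CPM, y axes from 0) of the 10 genes in each of 3 WT (blue) and 3 HET (red) mice, with the symbol giving the mouse number and the bar the mean ± SD. All HET points lie above all WT points for *Pi16*, *Dpp4*, *Clec3b*, *Dpt* and *Serpinf1*, and the genotypes overlap for *Sema3c*, *Cd55*, *Pdgfra*, *Ly6a* and *Cd34*.

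Among the adventitial genes, *Pi16*, a secreted peptidase inhibitor-like protein that names the adventitial fibroblast state, was 43.7, 41.4 and 50.3 CPM in HET mice 1 to 3 and 18.3, 19.3 and 27.4 CPM in WT mice 1 to 3. The lowest HET mouse was well above the highest WT mouse, WT mouse 3. The means were 45.2 ± 4.62 and 21.6 ± 4.997 CPM (SD, n = 3), and *Pi16* rose by a log2 fold change of 1.06 ± 0.15 (SE; 95% confidence interval 0.71 to 1.40, edgeR adjusted p = 0.0452), the 12th smallest p of the 14696 genes. The adjusted p was 0.00622 without WT mouse 3 and between 0.111 and 0.266 without any other single mouse, with log2 fold changes from 0.95 to 1.27 over the 6 fits.

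*Clec3b* encodes tetranectin, a secreted plasminogen-binding lectin. It was 21.0, 26.2 and 24.0 CPM in HET mice 1 to 3 and 9.50, 13.7 and 14.2 CPM in WT mice 1 to 3. The genotypes were apart by more than the range within either of them. For *Clec3b* the log2 fold change was 0.92 ± 0.16 (SE, interval 0.57 to 1.27, edgeR adjusted p = 0.0710), which missed the threshold. *Clec3b* passed it without WT mouse 3 (edgeR adjusted p = 0.0355). Without any other single mouse the adjusted p lay between 0.123 and 0.303 (edgeR).

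*Dpp4*, the lowest of the 10 genes, was 3.61, 3.73 and 6.63 CPM in HET mice 1 to 3 (135, 100 and 291 reads) and 1.07, 1.84 and 2.65 CPM in WT mice 1 to 3. The genotypes did not overlap, but HET mouse 3 lay far above the other HET mice and WT mice spread widely. The log2 fold change of *Dpp4* was the highest of the 10 genes and the least precise, 1.30 ± 0.34 (SE; interval 0.54 to 2.07, edgeR adjusted p = 0.240), and lay between 0.96 and 1.69 when each mouse was left out.

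*Sema3c* and *Cd55* stood apart from the other adventitial genes. *Sema3c*, a secreted semaphorin that acts through neuropilins and plexins, was 69.6, 60.1 and 86.8 CPM in HET mice 1 to 3 and 68.8, 64.5 and 66.4 CPM in WT mice 1 to 3. The WT mice lay close together, and the HET mice reached below and above them. The log2 fold change of *Sema3c* was 0.12 ± 0.12 (SE; interval −0.16 to 0.39, edgeR adjusted p = 0.908) and −0.03 without HET mouse 3. *Cd55*, the decay-accelerating factor that protects cells from complement, was 17.5, 16.1 and 25.2 CPM in HET mice 1 to 3 and 17.4, 19.7 and 15.2 CPM in WT mice 1 to 3. HET mouse 3 alone lay above the WT range. Its log2 fold change was 0.18 ± 0.17 (SE; interval −0.21 to 0.57, edgeR adjusted p = 0.893) and −0.04 without HET mouse 3. For both genes the interval leaves out a difference of the size measured for *Pi16*.

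Among the general genes, *Serpinf1*, which encodes the secreted serpin PEDF (pigment epithelium-derived factor), differed most. It was 59.3, 86.2 and 91.6 CPM in HET mice 1 to 3 and 28.6, 38.6 and 45.7 CPM in WT mice 1 to 3. The genotypes did not overlap, although HET mouse 1 lay nearer to the WT mice than the others. For *Serpinf1* the log2 fold change was 1.07 ± 0.21 (SE, interval 0.59 to 1.54, edgeR adjusted p = 0.125). It was close to that of *Pi16*, with a wider error. The edgeR adjusted p of *Serpinf1* was 0.0469 without WT mouse 3 and between 0.0835 and 0.412 without any other single mouse.

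*Dpt* encodes dermatopontin, a matrix protein that binds decorin and assists collagen fibril formation. It was 38.5, 38.5 and 46.8 CPM in HET mice 1 to 3 and 26.0, 27.6 and 30.6 CPM in WT mice 1 to 3. The genotypes did not overlap and the spread within them was small, with a coefficient of variation of 8.30% in WT and 11.6% in HET mice. The log2 fold change was 0.56 ± 0.11 (SE; interval 0.31 to 0.80, edgeR adjusted p = 0.108), smaller than that of *Serpinf1* but the most precise of the 10 genes.

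*Pdgfra*, the receptor that defines FAPs in most sorting schemes, was 27.6, 20.2 and 26.4 CPM in HET mice 1 to 3 and 11.9, 15.5 and 21.3 CPM in WT mice 1 to 3. The genotypes overlapped, because WT mouse 3 lay above HET mouse 2. The log2 fold change of *Pdgfra* was 0.60 ± 0.20 (SE, interval 0.14 to 1.06, edgeR adjusted p = 0.427). When each mouse was left out it ran from 0.42 without WT mouse 1 (edgeR adjusted p = 0.882) to 0.85 without WT mouse 3 (edgeR adjusted p = 0.0646). *Cd34*, a sialomucin of progenitors and endothelium, was 106, 89.1 and 133 CPM in HET mice 1 to 3 and 76.6, 94.8 and 72.3 CPM in WT mice 1 to 3. WT mouse 2 lay above HET mouse 2, and the log2 fold change was 0.43 ± 0.15 (SE; interval 0.09 to 0.77, edgeR adjusted p = 0.441), and 0.27 without HET mouse 3.

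*Ly6a* was 50.9, 45.3 and 57.9 CPM in HET mice 1 to 3 and 47.1, 50.3 and 38.5 CPM in WT mice 1 to 3. The genotypes overlapped over most of their range. For *Ly6a* the log2 fold change was 0.18 ± 0.12 (SE; interval −0.09 to 0.46, edgeR adjusted p = 0.838), and 0.08 without WT mouse 3 or 0.09 without HET mouse 3. Its transcripts share sequence with *Ly6c1*, which was 47.4 ± 0.862 CPM in HET and 50.2 ± 5.57 CPM in WT mice.

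**Figure D2:**
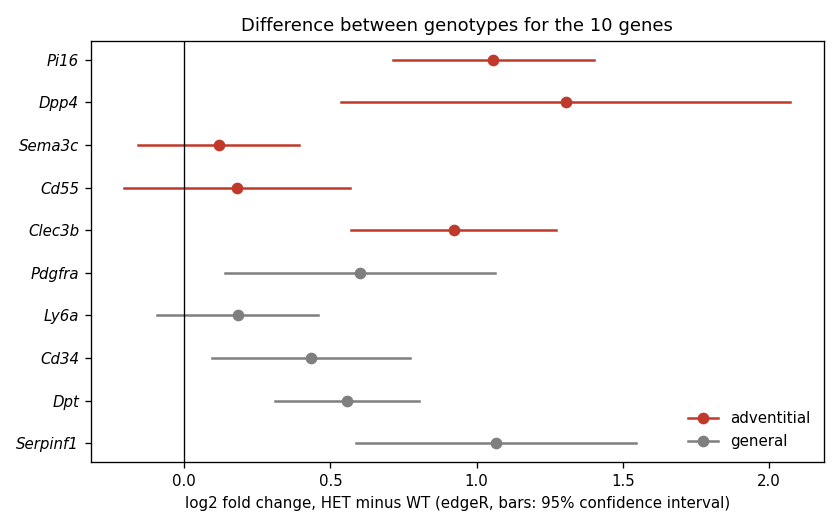
Log2 fold change of HET against WT (x axis, log2 units) for the 10 genes, with points for the edgeR estimate, bars for its 95% confidence interval, adventitial genes in red and general genes in gray. The intervals of *Sema3c*, *Cd55* and *Ly6a* include 0, and *Dpp4* has the widest, from 0.54 to 2.07.

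The median log2 fold change was 0.92 over the 5 adventitial genes and 0.56 over the 5 general genes, against −0.02 over all genes tested. The ranges of the sets overlapped widely, from 0.12 to 1.30 in adventitial and from 0.18 to 1.07 in general genes. The choice of test moved the number of calls more than it moved the fold changes. DESeq2 called 5 of the 10 genes, *Pi16*, *Dpp4*, *Clec3b*, *Dpt* and *Serpinf1*, where it called 1.12% of all genes higher and 0.0562% lower, and limma-voom called 0 of the 10. With edgeR, 3 were called without WT mouse 3 (*Pi16*, *Clec3b* and *Serpinf1*), and 0 without any other single mouse.

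The mice of a genotype differed in a way shared by several of the 10 genes. HET mouse 3 was the highest of the HET mice in 8 of the 10 genes, all but *Clec3b* and *Pdgfra*, and HET mouse 2 the lowest in 7. WT mouse 1 was the lowest WT mouse in 6 genes, and WT mouse 3 the highest in 6. On log2 CPM centered on each gene's mean, the average over the 10 genes was 0.22, 0.18 and 0.57 in HET mice 1 to 3 and −0.53, −0.26 and −0.18 in WT mice 1 to 3. This ordering places WT mouse 3 nearest to the HET mice and HET mouse 3 farthest from the WT mice.

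**Figure D3:**
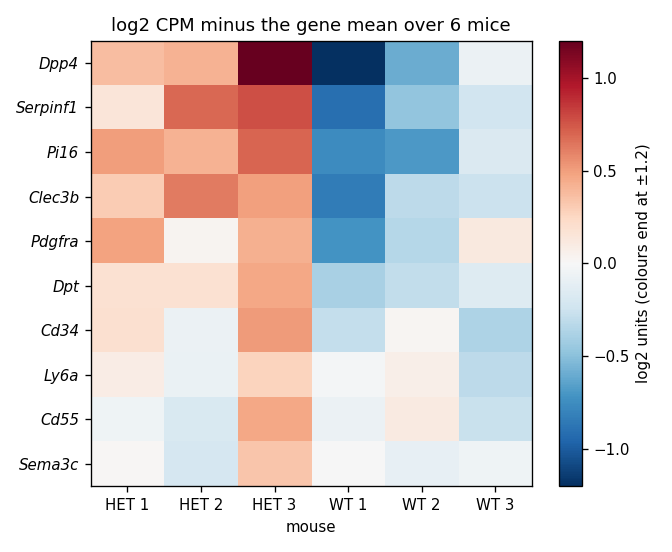
Log2 CPM of the 10 genes (rows) in the 6 mice (columns), each centered on the gene's mean over all mice, with red above and blue below that mean and colors ending at ±1.2 log2 units. HET mouse 3 is highest in most rows and WT mouse 1 lowest in many, and the lowest rows (*Ly6a*, *Cd55* and *Sema3c*) show little difference between genotypes.

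To compare adventitial genes with general markers independently of the scaling between libraries, the reads of each adventitial gene were divided by those of *Pdgfra* and of *Ly6a* within each mouse, giving 10 ratios. With 3 mice against 3, the two-sided exact permutation test cannot give a p below 0.1, so no ratio could pass 0.05. The genotypes did not overlap in 5 of the 10 ratios, 2 of 5 against *Pdgfra* and 3 of 5 against *Ly6a*, and HET was the higher in each. All of these 5 had an exact p = 0.1, which was 0.2 after adjustment over the 10 ratios. The 10 ratios are not independent, since they share their genes and their references. *Ly6a* itself hardly differed between genotypes (log2 fold change 0.18), so a ratio to it largely repeats the difference of the adventitial gene. The share of all genes whose ratio to either reference separates the genotypes was not computed.

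*Pi16* relative to *Ly6a* had log2 ratios of −0.22, −0.13 and −0.20 in HET mice 1 to 3 and −1.36, −1.39 and −0.49 in WT mice 1 to 3, a difference of 0.90 (1.19 without WT mouse 3). The HET mice lay close together and WT mouse 3 lay between them and the other WT mice. Relative to *Pdgfra*, *Pi16* had log2 ratios of 0.66, 1.04 and 0.93 in HET and 0.62, 0.31 and 0.36 in WT mice, a difference of 0.45 in which HET mouse 1 was barely above WT mouse 1.

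*Dpp4* differed by 1.18 relative to *Ly6a* and by 0.73 relative to *Pdgfra* on the log2 scale, without overlap in both. When each mouse was left out these ran from 0.80 (without WT mouse 1) to 1.60 (without WT mouse 3) and from 0.50 (without HET mouse 3) to 0.97 (without HET mouse 1). *Clec3b* differed by 0.76 relative to *Ly6a* without overlap, and by 0.31 relative to *Pdgfra* with overlap (exact p = 0.4). The difference of 0.31 was 0.10 without HET mouse 2, 0.20 without WT mouse 3 and 0.48 without HET mouse 1. *Sema3c* and *Cd55* went the other way against *Pdgfra*, with differences of −0.53 (exact p = 0.2) and −0.48 (exact p = 0.3), both with overlapping genotypes. These rested in size on single WT mice, being −0.31 and −0.27 without WT mouse 1 and −0.75 and −0.79 without WT mouse 3. Against *Ly6a* they were near equal in the genotypes, at −0.08 (exact p = 0.7) and −0.03 (exact p = 0.9).

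**Figure D4:**
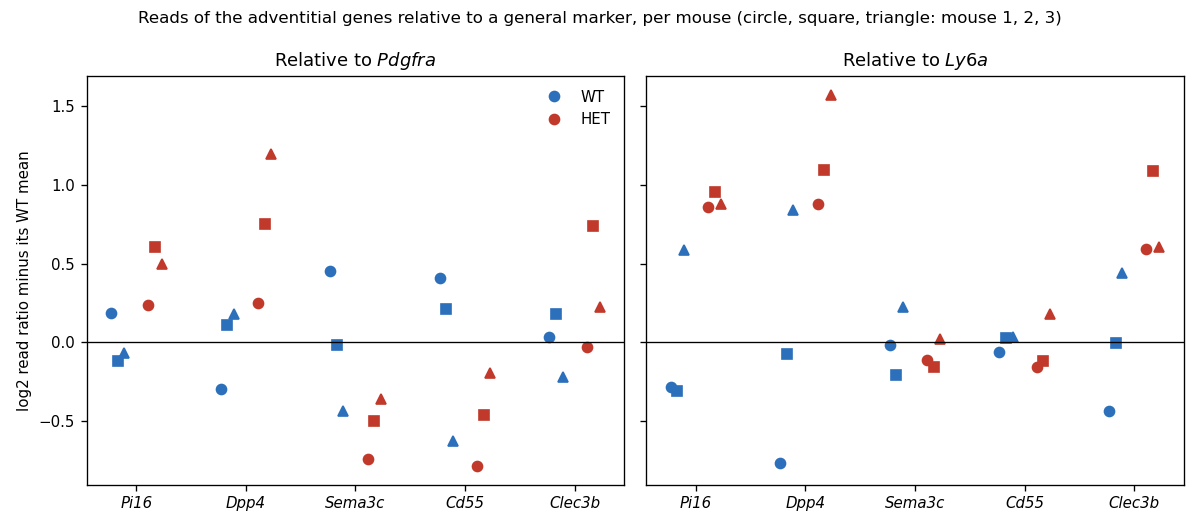
Log2 ratio of the reads of each adventitial gene to those of *Pdgfra* (left) or *Ly6a* (right) in each mouse, minus the mean of the 3 WT mice, with WT in blue, HET in red and the symbol giving the mouse number. *Pi16* and *Dpp4* are separated by genotype in both panels and *Clec3b* in the right panel, and *Sema3c* and *Cd55* overlap in both.

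Taken as the mean log2 CPM of the adventitial genes minus that of the general genes in the same mouse, the difference was −1.28, −1.22 and −1.13 in HET mice 1 to 3 and −1.43, −1.40 and −1.26 in WT mice 1 to 3. WT mouse 3 overlapped with the HET mice. The genotype means were −1.21 ± 0.0772 and −1.37 ± 0.0902 (SD, n = 3), a difference of 0.16, which was 0.30 without *Cd55* and −0.09 when CPM were summed within each set before taking the log, a sum in which *Sema3c* weighs most among the adventitial genes and *Cd34* among the general ones. In the mean of logs, *Dpp4*, with the fewest reads and the highest log2 fold change, weighs as much as any other adventitial gene. The difference without *Dpp4* was not computed, so how far the 0.16 rests on it is not known.

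Other genes known from adventitial fibroblasts were also higher in HET mice. Their list was chosen with earlier results of these data known, so it describes the data and is no independent support. All 20 of a list of them had a log2 fold change above 0, and in 16 the genotypes did not overlap, with a median of 0.83. None passed the adjusted threshold with edgeR, whereas 16 had an unadjusted p under 0.05, DESeq2 called 9 and limma-voom called 0. Over all genes, 45.6% lay above 0 and 7.55% had every HET mouse above every WT mouse. An unadjusted p under 0.05 with a higher level in HET was found in 5.76%, and DESeq2 called 1.12% higher. The counts of the lists that follow are to be read against the same shares. The largest difference was in *Cd248* (endosialin, a stromal surface protein), at 22.1 ± 6.10 CPM in HET and 9.52 ± 2.61 CPM in WT mice (SD, n = 3), and the smallest in *Anxa3*, at 24.2 ± 3.55 and 20.5 ± 1.60 CPM. *Adgrd1*, an adhesion receptor, was 7.94 ± 1.39 against 3.85 ± 1.16 CPM, *Igfbp6*, an IGF-binding protein, 47.1 ± 7.25 against 23.6 ± 7.24 CPM, and *Timp2*, a metalloproteinase inhibitor, 105 ± 17.8 against 60.5 ± 13.9 CPM. *Scara5*, a ferritin receptor, and *Efhd1* were likewise without overlap, with log2 fold changes of 0.85 ± 0.23 and 0.89 ± 0.23 (SE).

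Genes of parenchymal fibroblasts had the smaller median. Of 20, 17 had a log2 fold change above 0 and 6 did not overlap between genotypes, with a median of 0.37. None passed with edgeR, 7 had an unadjusted p under 0.05 and a higher level in HET, DESeq2 called 1 and limma-voom 0. *Gsn*, the actin-severing protein gelsolin, was 677 ± 57.8 CPM in HET and 370 ± 157 CPM in WT mice (SD, n = 3), and *Dcn*, the collagen-binding proteoglycan decorin, 302 ± 33.9 against 202 ± 41.0 CPM. *Cxcl14* was 13.5 ± 0.208 against 9.36 ± 2.37 CPM, and *Podn* 9.78 ± 0.632 against 7.09 ± 1.73 CPM, while *Lum* and *Cygb* had log2 fold changes of 0.60 ± 0.21 and 0.47 ± 0.17 (SE) with overlap. The lowest was *Hsd11b1*, an enzyme that reactivates glucocorticoids, at −0.12 ± 0.25.

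Transcription factors and signals of FAPs were mixed. Of 14, *Tcf21* had at most 2 reads in any library and was not tested. Of the other 13, 11 lay above 0 and 5 without overlap, with a median of 0.53 and 5 with an unadjusted p under 0.05. None passed with edgeR, DESeq2 called 1 and limma-voom 0. *Thy1* (CD90) was highest, at 11.9 ± 3.47 CPM in HET and 5.86 ± 0.827 CPM in WT mice (SD, n = 3, edgeR adjusted p = 0.108), and *Il33*, an alarmin by which FAPs act on regulatory T cells, was 4.75 ± 1.31 against 2.70 ± 0.321 CPM. *Meox1*, *Fst* (the myostatin inhibitor follistatin) and *Ccn4* had log2 fold changes of 0.55, 0.46 and 0.73, and *Ltbp4* of 0.28. *Prrx1*, a mesenchymal transcription factor, was lowest at −0.14 ± 0.13 (SE).

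Genes of activated, matrix-producing fibroblasts had a median of 0.81, with 9 of 10 above 0 and 5 without overlap. None passed with edgeR, 6 had an unadjusted p under 0.05, DESeq2 called 2 and limma-voom 0. The range ran from *Lrrc15* (log2 fold change −0.13, 5 to 16 reads) to *Cthrc1* (1.23, 12 to 78 reads).

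**Figure D5:**
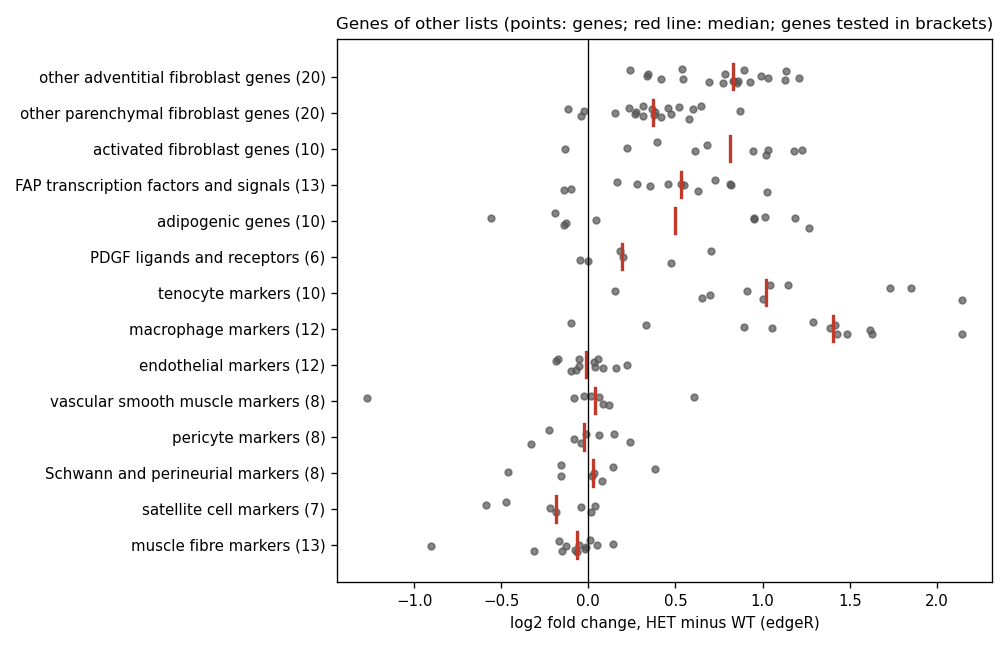
Log2 fold change of HET against WT (x axis, log2 units) for the genes of 14 lists, with a point for each gene, a red line for the list's median and the number of genes tested in brackets. The medians of adventitial (0.83), activated (0.81), tenocyte (1.02) and macrophage genes (1.40) lie to the right, and those of endothelial (−0.01), vascular smooth muscle (0.04) and pericyte genes (−0.03) lie near 0.

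Markers of other cells of the muscle moved with the 10 genes in part. Macrophage markers were higher in HET in 11 of 12 genes, 10 without overlap, and 5 passed the threshold (*C1qa*, *C1qb*, *Lyz2*, *Csf1r* and *Adgre1*, edgeR), where DESeq2 called 8 and limma-voom 2. As for all genes, edgeR called 0 of them without HET mouse 1, HET mouse 3, WT mouse 1 or WT mouse 2. Summed over the list they were 98.0 to 139 CPM in HET and 55.1 to 64.5 CPM in WT mice, and no marker was at 0. Their log2 fold changes ran from −0.10 in *Mertk* to 2.14 in *Fcgr1* (2 to 56 reads). The genotypes overlapped in *Mertk* and in *Mrc1* (0.33). Tenocyte markers were higher in 10 of 10 genes, 9 without overlap, with sums of 446 to 766 CPM in HET and 166 to 360 CPM in WT mice, none at 0 and none past the threshold (8 with an unadjusted p under 0.05, DESeq2 3, limma-voom 0). *Scx*, the transcription factor that defines tenocytes, was 28.9 ± 4.98 CPM in HET and 26.0 ± 3.75 CPM in WT mice (SD, n = 3), and the range ended at *Chad* with a log2 fold change of 2.14 ± 0.72 (SE). Tendon and connective tissue cells share matrix genes with FAPs, and the part of either cell type in the differences of the 10 genes was not tested.

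Endothelial markers, whose cells also make *Cd34* and *Ly6a*, had 6 of 12 genes above 0 and none without overlap (median −0.01, from −0.18 in *Cdh5* to 0.22 in *Cldn5*). Vascular smooth muscle markers had a median of 0.04, from −1.27 in *Myocd* to 0.60 in *Cnn1*, and pericyte markers of −0.03, from −0.33 in *Rgs5* to 0.24 in *Cox4i2*. Muscle fiber markers, at 111561 to 128127 CPM in HET and 120570 to 124217 CPM in WT mice, had a median of −0.06, from −0.91 in *Myh4* to 0.14 in *Myh2*, which shows the tissue to be muscle in every library. Satellite cell markers had a median of −0.18, from −0.59 in *Myf5* to 0.04 in *Chodl*, and Schwann and perineurial markers of 0.03, from −0.46 in *Cdh19* to 0.38 in *Itgb4*. Of the lymphocyte markers, whose cells can make *Dpp4*, only *Ptprc* of 9 had enough reads to be tested (log2 fold change 1.11), and of 6 mesothelial markers only *Krt19* (0.49). In these 8 lists edgeR, DESeq2 and limma-voom called 0 genes, except that DESeq2 called *Ptprc*, and unadjusted p under 0.05 were found in 1 vascular smooth muscle, 1 pericyte and 1 satellite cell gene, lower in HET, and in *Ptprc*, higher in HET. Every HET mouse lay below every WT mouse in 1 vascular smooth muscle, 1 pericyte, 2 satellite cell and 2 muscle fiber genes (6.02% of all genes). Every HET mouse lay above in 1 Schwann and perineurial gene and in *Ptprc* (7.55% of all genes).

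The genes whose values over the 6 mice were most like the average profile of the 10 genes were found among 12395 other genes with a mean of at least 1 CPM, by the root mean square distance of log2 CPM centered on each gene's mean. The nearest 8 were *Apobec1* (0.05), *Lpar1* (0.06), *Ptgfrn* (0.07), *Myof* (0.07), *Capg* (0.08), *Pcdh7* (0.08), *Adamtsl3* (0.08) and *Rnase4* (0.08). By the same measure *Dpt* (0.08) lay nearest to that average among the 10 genes themselves, and *Dpp4* (0.46) farthest. *Lpar1*, a receptor for lysophosphatidic acid, was 17.2 CPM in HET and 11.4 CPM in WT mice, and *Ptgfrn*, a tetraspanin partner, 37.8 and 26.1 CPM. The log2 fold changes of the 8 genes lay between 0.54 and 0.72, a range that the choice by likeness to this profile sets in advance. None of the 8 passed the adjusted threshold with edgeR, *Capg*, an actin-capping protein, being nearest to it (adjusted p = 0.0785).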

How the data were processed

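Poly-A RNA from the soleus of 3 HET and 3 WT mice was sequenced as stranded libraries. The authors aligned reads to GRCm38.p6 with STAR 2.7.3a and deposited raw counts (reads per gene) from featureCounts 2.0.3 in reverse-stranded mode, with an annotation release not given in the sources used here. The authors also deposited a normalized signal, the raw count divided by a DESeq2 size factor per library (0.773 to 1.42). Their deposited DESeq2 comparison was not used. No per-sample column was unmatched (0).

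From the raw counts, genes were filtered with filterByExpr (minimum count 10), scaled with TMM and compared between genotypes in edgeR 4.0.16 (R 4.3.3; quasi-likelihood F-test, robust, two-sided) with Benjamini-Hochberg adjustment over all genes tested at 0.05. SE is the log2 fold change over the square root of F. limma 3.58.1 and DESeq2 1.42.0 were alternatives. Principal components and centered profiles used log2 CPM with a prior count of 2. RPKM used the deposited gene lengths. Ratios were tested by exact permutation. GENCODE transcripts gave shared 50-base stretches, and RefSeq the upstream windows. The steps were tested on simulated data.

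The 10 genes and the lists were chosen with earlier results of these data known, so no p was adjusted over a list and no list was tested. The result of 1 further marker list is not reported here. Named genes are the 10, *Mustn1*, *Xist*, each list's called, extreme and lowest-p genes, and the 8 genes nearest in profile. *Scx*, *Mrc1*, *Ly6c1*, *Cd55b* and *Tcf21* were named after their values were seen. Each library is 1 mouse. The p-values of edgeR, DESeq2 and limma-voom set the difference between genotypes against the variation between these mice. For each gene that variation is estimated partly from other genes.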

Additional observations from a re-analysis of the deposited data

How the results depend on the processing

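Over all genes tested, edgeR called 21 genes higher and 1 lower in HET. The counts were 386 and 18 with no filter on low counts, 200 and 10 with DESeq2, 3 and 0 with limma-voom, 6 and 0 with the non-robust dispersion, and 0 to 77 and 0 to 6 when each mouse was left out (0 and 0 without HET mouse 1, HET mouse 3, WT mouse 1 or WT mouse 2, 14 and 1 without HET mouse 2, and 77 and 6 without WT mouse 3). Of the 10 genes, 1 was called, *Pi16*, against 7 with no filter, 5 with DESeq2, 0 with limma-voom, 0 with the non-robust dispersion and 0 to 3 when each mouse was left out. Leaving out a mouse leaves fewer samples. For the other changes the cause was not tested. Other scaling factors and the stricter filter kept *Pi16* as the 1 gene called. The 7 genes called with no filter were *Pi16*, *Dpp4*, *Clec3b*, *Pdgfra*, *Cd34*, *Dpt* and *Serpinf1*. *Pi16* missed the threshold with limma-voom (adjusted p = 0.0673) and the non-robust dispersion (adjusted p = 0.0606).

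The replicate numbers are shared by the genotypes in the labels. Deviations of same-numbered mice correlated at 0.20, −0.01 and −0.03, so the numbers were not taken to pair the mice. With the replicate number as a block, edgeR called 114 genes higher and 2 lower, among them all 21 of the unblocked fit, and 5 of the 10 genes (*Pi16*, *Dpp4*, *Clec3b*, *Dpt* and *Serpinf1*). HET mouse 1 and WT mouse 1 correlated best with each other, and the other mice did not correlate best with their own number.

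The fold changes of 8 of the 10 genes kept their direction in all 15 alternatives. Those of *Sema3c* (−0.0335 to 0.25) and *Cd55* (−0.0431 to 0.32) turned when HET mouse 3 was left out. The ratios kept their direction except *Sema3c* to *Ly6a* (−0.18 to 0.0286) and *Cd55* to *Ly6a* (−0.14 to 0.0338) when single mice were left out, without WT mouse 3 for the first and without HET mouse 1 (0.0338) or HET mouse 2 (0.0131) for the second. The adventitial minus general difference of 0.16 was −0.0939 from summed CPM and 0.30 without *Cd55*. It was not computed without any other single gene. Depth limits *Dpp4* most, with 32 to 291 reads per library.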

Other observations

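Genes that act with the 10 genes, or are related to them in sequence, give further values. Among the ligands and receptors of the PDGF family, 4 of 6 lay above 0 and the median log2 fold change was 0.19. *Pdgfrl*, a receptor-like protein without a kinase, was the only one without overlap, at 5.15 ± 0.825 CPM in HET and 3.17 ± 0.181 CPM in WT mice (SD, n = 3). The ligand *Pdgfa*, which binds *Pdgfra*, was 21.0 ± 0.989 against 21.1 ± 1.61 CPM. *Pdgfc*, the other main ligand of that receptor, was 3.57 ± 1.19 against 2.56 ± 0.774 CPM with overlap, *Pdgfb* 39.5 ± 3.99 against 34.8 ± 3.86 CPM and the receptor *Pdgfrb* 47.5 ± 3.97 against 41.3 ± 7.59 CPM. *Pdgfd* was lowest, with a log2 fold change of −0.05. None passed the threshold with edgeR, 1 had an unadjusted p under 0.05, and DESeq2 and limma-voom called 0.

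Adipogenic genes, which FAPs turn on as they become adipocytes, overlapped between genotypes in 10 of 10 cases. Their median was 0.50, from −0.56 in *Dlk1* to 1.27 in *Adipoq*, with edgeR, DESeq2, limma-voom and the unadjusted p calling 0. *Adipoq* was 16.4 ± 8.55 CPM in HET and 6.54 ± 6.67 CPM in WT mice (SD, n = 3) and *Plin1* 13.2 ± 7.62 against 5.55 ± 6.44 CPM, so that fat cell genes varied between mice of the same genotype about as much as between genotypes. *Cebpa* and *Retn* had log2 fold changes of 1.02 and 0.95, and *Fabp4*, which endothelial cells also make, of −0.13.

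Of 15 partners of the 10 proteins, 13 were tested, 8 lay above 0 and 4 without overlap, with a median of 0.08. None passed with edgeR, 5 had an unadjusted p under 0.05 and a higher level in HET, DESeq2 called 3 and limma-voom 0. *C3*, the complement component whose convertases *Cd55* takes apart, was highest at 32.7 ± 13.3 CPM in HET and 9.11 ± 3.76 CPM in WT mice (SD, n = 3, edgeR adjusted p = 0.254). *Adamts2*, a procollagen protease, was 29.2 ± 4.20 against 18.8 ± 2.33 CPM, and *Fn1*, fibronectin, 291 ± 92.3 against 133 ± 40.0 CPM; *Dcn* and *Fn1* are also in the fibroblast lists. *Tgfb1* had a log2 fold change of 0.44, and *Cav1*, the lowest, of −0.16.

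Of 29 genes related to the 10 in sequence, 20 were tested, 13 lay above 0 and 8 without overlap, with a median of 0.22. The 1 past the threshold was *Csf1r*, the macrophage receptor tyrosine kinase related to *Pdgfra* (log2 fold change 1.39 ± 0.20, SE, edgeR adjusted p = 0.0452), which is also among the macrophage markers. DESeq2 called 2 of the 20 and limma-voom 0, so *Csf1r* was not called by the latter. The lowest was *Sema3g*, at −0.23.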
